A study of Mus musculus with 8 samples.

Results

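The DNA replication machinery is the set of proteins that a cell assembles to copy its genome in S phase. The origin recognition complex marks the start sites, and Cdc6 and Cdt1 load onto them the ring of 6 MCM proteins that unwinds the DNA. Cdc45 and the GINS complex turn that ring into an active helicase, DNA polymerases alpha, delta and epsilon build the new strands, and a sliding clamp loaded by replication factor C holds the polymerases on the template. Many of these genes are transcribed under the control of E2F factors, which the retinoblastoma protein restrains outside S phase. In stratified epidermis, DNA replication normally takes place in the basal layer and stops as keratinocytes differentiate.

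The members were 46 mouse genes chosen by symbol for these roles, and 45 of them could be measured among 17097 genes with a probe set of their own. Orc3, a subunit of the origin recognition complex, was covered only by probe sets shared with a neighbouring gene and has no value here. Expression was measured on 8 Affymetrix arrays of cells sorted for α6-integrin and CD34 from skin squamous cell carcinoma (SCC), a cancer of keratinocytes, 4 arrays from poorly differentiated tumours (PD-SCC, written PD/S-SCC in the sample labels) and 4 from well differentiated ones (WD-SCC). All tumours of both stages descended from K14-HPV16 mice, in which the keratin 14 promoter drives papillomavirus early genes in basal keratinocytes, and had arisen spontaneously or after DMBA-TPA, a carcinogen and tumour promoter; which origin belongs to which lineage was not given. The background strain of every sample was FVB/C57/Bl6, and the tumours grew orthotopically in nude mice, which lack T cells, and were passed on serially. The resulting lineages are called OT14, OT15 and OT7, of which the last has 2 arrays for each stage and the others have 1 each, and no age of the mice was given. Before the sort, blood and endothelial cells had been depleted. The samples are labelled as biological replicates, but whether both OT7 samples of 1 stage stem from different tumours is not said. The p-values therefore cover only the variation among the sampled arrays, part of which may be technical, and the few arrays limit precision.

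Many DNA replication genes were higher in PD-SCC cells, and none passed the test as lower. Of the 45 measured genes, 23 rose, 0 fell and 22 did not pass the test (limma with lineage as a block, adjusted p under 0.05 over all genes), where 7.78% of all genes rose and 4.81% fell. The median difference between the stages, PD-SCC minus WD-SCC, was 1.16 on the log2 scale, against -0.06 over all genes. Of the 45 differences, 44 were above 0, as were 42.2% over all genes. After scaling the arrays to a common 75th percentile 42 were, and those of Orc4 and Fen1 turned below 0. At least 2-fold higher were 28 of the 45 genes and 9.41% of all genes. Every PD-SCC array lay above every WD-SCC array for 29 of the 45, against 10.8% of all genes, and none lay wholly below, against 13.3%. At an unadjusted p under 0.05, 39 of the 45 were higher and 0 lower, against 2934 higher and 2513 lower of all 17097 genes.

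Leaving out single arrays lowered the count of genes that rose and moved the median little. Without 1 array, 17 genes rose when either OT15 array was left out, 14 without the unnumbered OT7 WD-SCC array, 12 without the second OT7 WD-SCC array, 12 without the first and 10 without the second OT7 PD-SCC array, and 11 without either OT14 array. The median stayed between 0.98 and 1.22 in these fits, where 3.21% to 5.6% of all genes rose. OT14 and OT15 have 1 array per stage. With lineage as a block, an array left without its partner carries no weight in the stage difference. Leaving out an OT14 or OT15 array therefore took that lineage out of the comparison, and either array gave the same fit. Of the 17 genes without OT15, 14 were among the 23. The count was 15 after cyclic loess scaling, 5 with dim values raised to the level of the background controls, 4 with the OT7 arrays of a stage averaged and 1 without lineage OT7, with medians between 0.89 and 1.08. In the same order, 4.67%, 1.78%, 1.18% and 0.304% of all genes rose. Gmnn, Pole2, Pcna, Rfc2, Rfc3, Rpa2 and Dut were the 7 of the 23 that passed whichever array was left out. Of these 7, only Rfc3 and Dut also passed with the OT7 arrays of a stage averaged. The 4 that passed there were Mcm6, Gins1, Rfc3 and Dut. Without the lineage block, 6 of the 23 did not pass: Gmnn (adjusted p = 0.0827), Mcm2 (0.0739), Mcm3 (0.0695), Cdc45 (0.0958), Pold1 (0.211) and Rfc5 (0.0697), and none of the 6 passed with lineage as a random block. These are bulk measurements of sorted cells, in which more cells in S phase and more RNA per cell cannot be told apart.

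**Figure D1:**
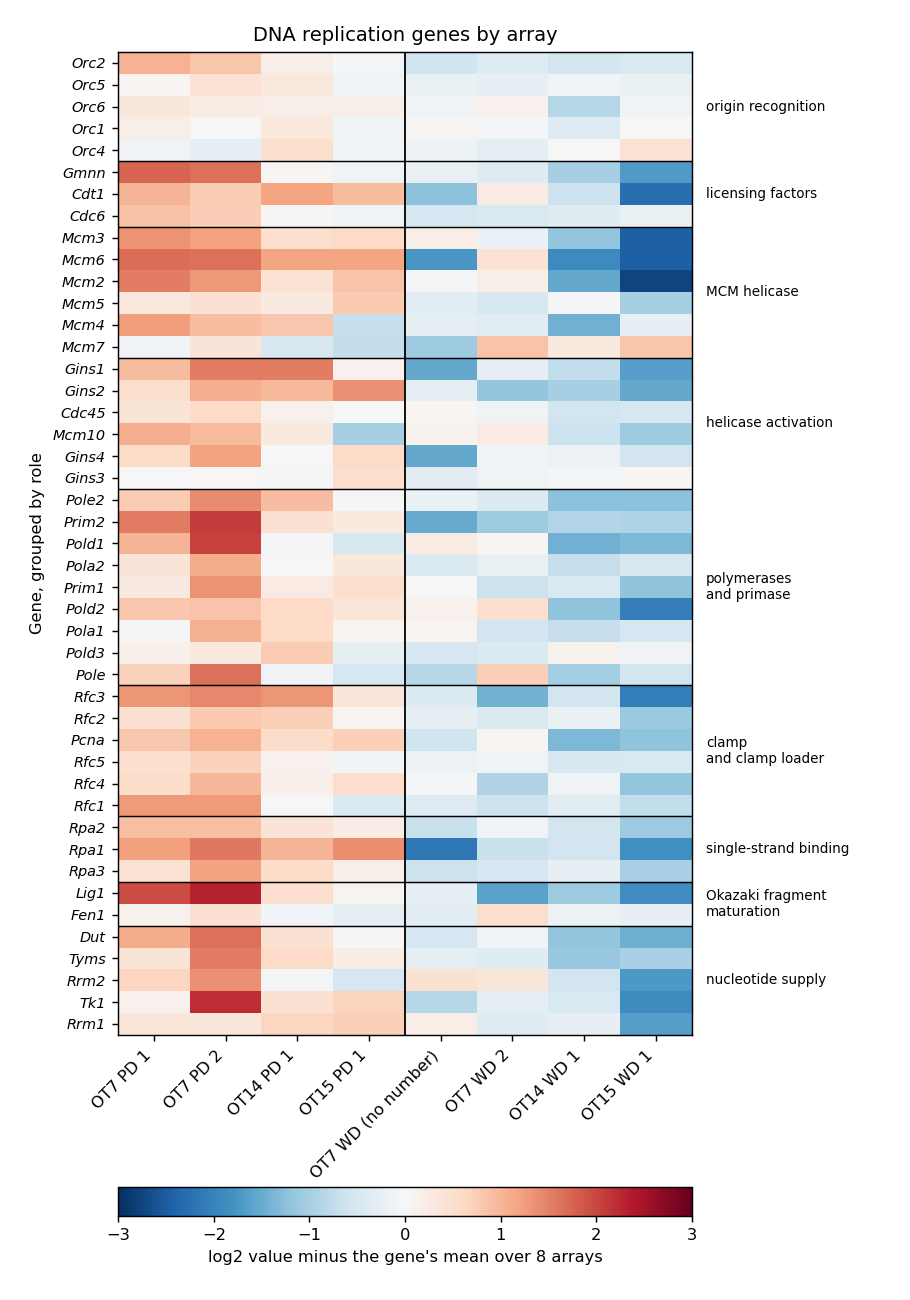
Log2 value of each of the 45 DNA replication genes on each array, minus the gene's own mean over the 8 arrays, with PD-SCC arrays left and WD-SCC arrays right of the vertical line. Genes are grouped by role; red is above and blue below the gene's mean, and 29 genes have every PD-SCC array above every WD-SCC array.

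Values below are log2 units, and each gene's arrays are listed in 1 order, which is OT7 number 1, OT7 number 2, OT14 and OT15 for PD-SCC and OT7 without a number, OT7 number 2, OT14 and OT15 for WD-SCC. Differences are PD-SCC minus WD-SCC with the standard error of the fit. A level at or under the highest of 15 bacterial control probe sets without a spike on the same array is not above background. That control averaged 3.69 ± 0.09 on PD-SCC arrays and 4.11 ± 0.22 on WD-SCC arrays (SD, n = 4 each). The same value can therefore be above it in PD-SCC and not in WD-SCC. Of the 45 genes, 27 were above it on all 8 arrays. Gmnn, Mcm2, Cdc45, Pold1, Pold2, Rfc5 and Tk1 were above it on all WD-SCC arrays except that of OT15, so their OT15 differences are taken against a value not above background.

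The origin recognition complex had the smallest median difference of the 9 roles. Of its 5 measured subunits only Orc2, one of the subunits that stay bound to chromatin, rose, and that median was 0.37. The 0.37 is the difference of Orc5. Orc5 and Orc4 were dim, as given below, so the rank of this role is uncertain. Orc2 measured 6.92, 6.72, 6.06 and 5.82 in PD-SCC, against 5.27, 5.49, 5.32 and 5.43 in WD-SCC (difference 1.00 ± 0.21, adjusted p = 0.0368). All PD-SCC values of Orc2 lay above the WD-SCC values, and the excess in OT7 (1.44) exceeded that in OT14 (0.74) and OT15 (0.40). Orc6, the smallest subunit, had 6.41, 6.29, 6.25 and 6.25 in PD-SCC, against 5.97, 6.19, 5.22 and 5.96 in WD-SCC, groups that did not overlap, with a difference of 0.46 ± 0.17, adjusted p = 0.122. Orc1, the subunit that in human cells is degraded after S phase begins, had 4.72, 4.53, 4.87 and 4.42 in PD-SCC, against 4.62, 4.52, 4.17 and 4.52 in WD-SCC. Its stages overlapped and the difference was 0.18 ± 0.16, adjusted p = 0.469. Orc5 and Orc4, both of the core of the complex, were dim. Orc5 had 3.85, 4.23, 4.11 and 3.71 in PD-SCC, against 3.58, 3.54, 3.71 and 3.60 in WD-SCC. Orc4 had 3.65, 3.46, 4.23 and 3.67 in PD-SCC, against 3.59, 3.47, 3.74 and 4.18 in WD-SCC, and its 4 probe sets differed in sign. In WD-SCC both were at or under the bacterial controls on every array, so no fold is given (adjusted p = 0.118 for Orc5 and 0.975 for Orc4).

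Of the 3 licensing factors, Cdt1 and its inhibitor Gmnn both rose. Gmnn stood at 7.44, 7.35, 5.73 and 5.56 in PD-SCC, against 5.47, 5.29, 4.69 and 3.99 in WD-SCC (difference 1.66 ± 0.19, adjusted p = 0.00748). Gmnn encodes geminin, which binds Cdt1 after origins have fired and so prevents a second loading of MCM rings; without the lineage block it did not pass (adjusted p = 0.0827). Cdt1 read 8.58, 8.31, 8.73 and 8.48 in PD-SCC, against 6.33, 7.79, 6.92 and 5.30 in WD-SCC (difference 1.94 ± 0.44, adjusted p = 0.0442). For Cdt1 the PD-SCC arrays lay between 8.31 and 8.73, while the WD-SCC arrays ran between 5.30 in OT15 and 7.79 in OT7. A second Cdt1 probe set gave 1.18, and 1 more, at the level of the controls on all arrays, gave -0.21. Cdc6, the ATPase that loads MCM rings together with Cdt1, had 4.60, 4.45, 3.73 and 3.59 in PD-SCC, against 3.19, 3.26, 3.35 and 3.51 in WD-SCC. The OT7 and OT14 PD-SCC arrays were above background, the OT15 PD-SCC array and all WD-SCC arrays were not, and the groups did not overlap (adjusted p = 0.0935), so that no fold is given.

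The MCM ring showed both the largest rise and the only difference below 0. Mcm2, Mcm3 and Mcm6 rose, Mcm4, Mcm5 and Mcm7 did not pass. Mcm6 had 7.37, 7.33, 6.87 and 6.87 in PD-SCC, against 3.94, 6.13, 3.77 and 3.23 in WD-SCC (difference 2.84 ± 0.52, adjusted p = 0.025). With a 7.18-fold rise, Mcm6 had the largest difference of the 45 genes, but only 1 of the 4 WD-SCC arrays was above background, so the fold is uncertain. Mcm2 measured 8.54, 8.30, 7.43 and 7.87 in PD-SCC, against 6.97, 7.17, 5.48 and 4.25 in WD-SCC (difference 2.07 ± 0.40, adjusted p = 0.0292). Mcm3 stood at 8.90, 8.77, 8.06 and 8.15 in PD-SCC, against 7.75, 7.35, 6.39 and 5.12 in WD-SCC (difference 1.82 ± 0.32, adjusted p = 0.0229). For these, the second probe set also rose, by 1.55 for Mcm2 (adjusted p = 0.00392) and 1.71 for Mcm3 (adjusted p = 0.00577, both in a fit over all probe sets).

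Each of Mcm2, Mcm3 and Mcm6 had its lowest WD-SCC value in OT15. For Mcm2, OT14 had a difference of 1.96 and OT7 of 1.35, and the 3.62 of OT15 is against a WD-SCC value not above background. Without the lineage block neither Mcm2 nor Mcm3 passed, as given above. Mcm5 came just short of the threshold, with 10.21, 10.35, 10.17 and 10.68 in PD-SCC, against 9.57, 9.42, 9.84 and 8.89 in WD-SCC and a difference of 0.92 ± 0.24, adjusted p = 0.0609. The stages of Mcm5 did not overlap. Mcm4 had 6.55, 6.22, 6.11 and 4.61 in PD-SCC, against 4.99, 4.96, 3.86 and 5.04 in WD-SCC. In OT7 it was 1.41 higher and in OT14 2.25 higher, whereas in OT15 the PD-SCC value was 0.43 lower, the widest range between lineages of all the members (2.68); over the lineages the difference was 1.16 ± 0.42, adjusted p = 0.125.

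Mcm7 did not follow the other subunits of the ring. It had 7.09, 7.58, 6.72 and 6.48 in PD-SCC, against 6.11, 8.06, 7.49 and 8.02 in WD-SCC, and its stages overlapped. The difference was -0.45 ± 0.53, adjusted p = 0.582, made of 0.25 in OT7, -0.76 in OT14 and -1.54 in OT15. Its second probe set gave -0.93 (adjusted p = 0.343), so both pointed below 0 and neither passed.

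**Figure D2:**
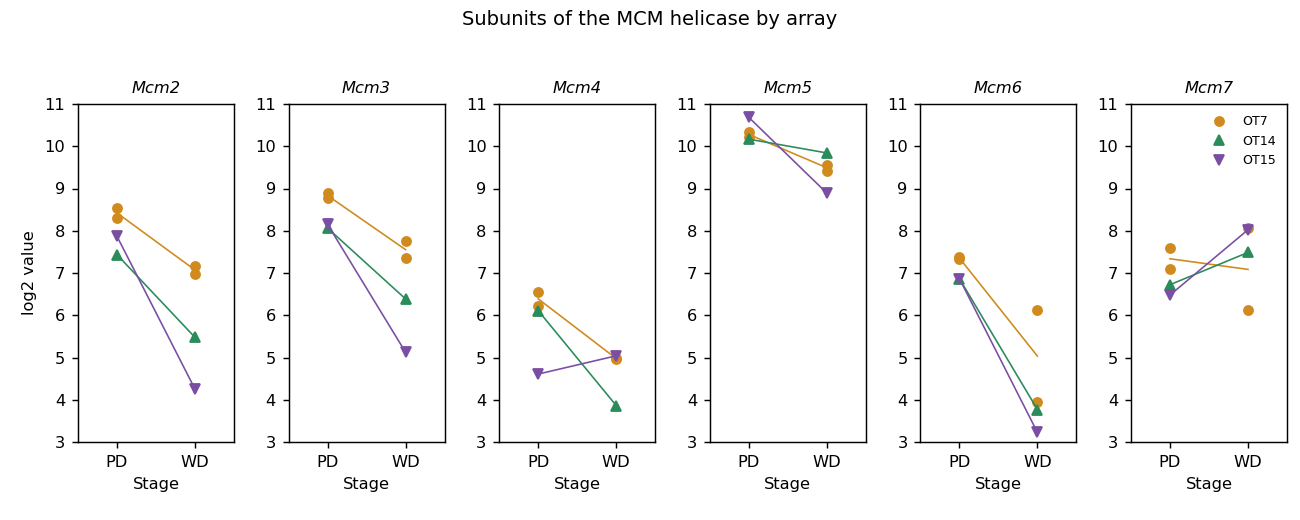
Log2 values of the 6 MCM helicase subunits on each array, PD-SCC left and WD-SCC right, with lines joining the stage means of each lineage. Mcm2, Mcm3 and Mcm6 slope down to WD-SCC in all 3 lineages, Mcm4 runs the other way in OT15 and Mcm7 in OT14 and OT15; levels are not comparable between genes.

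Promoters are shown for Mcm6 and Mcm7, the MCM subunits with the highest and the lowest difference, and for Mcm3 and the clamp loader gene Rfc3, which both rose. RefSeq promoter windows (GRCm38.p6, 250 bases before to 50 after the annotated start, given on the strand of the gene) were found for 38 of the 46 genes, 46 windows in all. They were searched on both strands for 4 versions of the E2F site, TTTCCCGC, TTTCGCGC, TTTGCCGC and TTTGGCGC. Capitals mark the matches, read on the printed strand, so that a site on the other strand appears as its reverse complement. The window of Mcm6 lies on the minus strand at chr1:128359656-128359955, Mcm3 on the minus strand at chr1:20820263-20820562, Rfc3 on the minus strand at chr5:151651159-151651458, and the second of 2 Mcm7 windows on the minus strand at chr5:138171834-138172133.
Mcm6: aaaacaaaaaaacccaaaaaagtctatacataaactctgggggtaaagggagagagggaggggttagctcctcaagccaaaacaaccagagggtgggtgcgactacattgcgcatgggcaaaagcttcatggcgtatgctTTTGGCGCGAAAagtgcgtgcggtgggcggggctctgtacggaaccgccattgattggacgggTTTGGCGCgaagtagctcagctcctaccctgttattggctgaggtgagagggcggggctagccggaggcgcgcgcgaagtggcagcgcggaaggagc
Mcm3: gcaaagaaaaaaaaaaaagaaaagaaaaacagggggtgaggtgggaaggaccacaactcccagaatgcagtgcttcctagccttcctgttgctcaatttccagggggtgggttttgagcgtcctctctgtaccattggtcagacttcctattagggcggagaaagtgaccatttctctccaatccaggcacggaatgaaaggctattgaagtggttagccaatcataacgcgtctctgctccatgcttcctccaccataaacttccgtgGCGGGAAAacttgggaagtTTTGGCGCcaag
Rfc3: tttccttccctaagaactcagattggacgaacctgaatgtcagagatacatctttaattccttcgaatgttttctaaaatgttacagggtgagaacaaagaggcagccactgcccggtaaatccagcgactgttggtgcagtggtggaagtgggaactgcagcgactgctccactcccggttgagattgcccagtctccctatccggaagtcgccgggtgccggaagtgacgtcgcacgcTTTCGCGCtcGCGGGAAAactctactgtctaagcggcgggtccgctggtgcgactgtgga
Mcm7: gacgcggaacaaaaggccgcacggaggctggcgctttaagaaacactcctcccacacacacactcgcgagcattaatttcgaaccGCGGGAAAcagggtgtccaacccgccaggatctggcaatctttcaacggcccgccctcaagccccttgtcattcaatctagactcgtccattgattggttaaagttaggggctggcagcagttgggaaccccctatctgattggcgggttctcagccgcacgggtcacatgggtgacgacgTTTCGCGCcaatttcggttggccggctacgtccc

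Mcm6 held 3 matches, of which those beginning at positions -110 and -106 (the annotated start being 0) overlap and form 1 capital run, and the other begins at -47. Both matches of Mcm3 lie after the start, and the Mcm7 window holds 2 matches as well, although Mcm7 was the gene with a difference below 0. Its other window, at chr5:138171217-138171516 on the minus strand, held none. Over the 46 windows, 15 (32.6%) held E2F letters, against 2.85% of 21262 promoters of protein-coding genes. The letters were found in 4 of 6 MCM windows, in both windows of the licensing factors and in 4 of 8 polymerase windows, but in 0 of 3 windows of single-strand binding genes and 0 of 5 of nucleotide supply genes. The stage differences of genes with and without the letters had like medians. The 14 measured genes with them had a median difference of 1.09 and 7 rose, and the 23 without them had a median of 1.06 and 11 rose. Only exact matches to the 4 versions were counted, so a gene without them may still have an E2F site. The split therefore cannot show whether E2F sites bear on the stage difference.

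**Figure D3:**
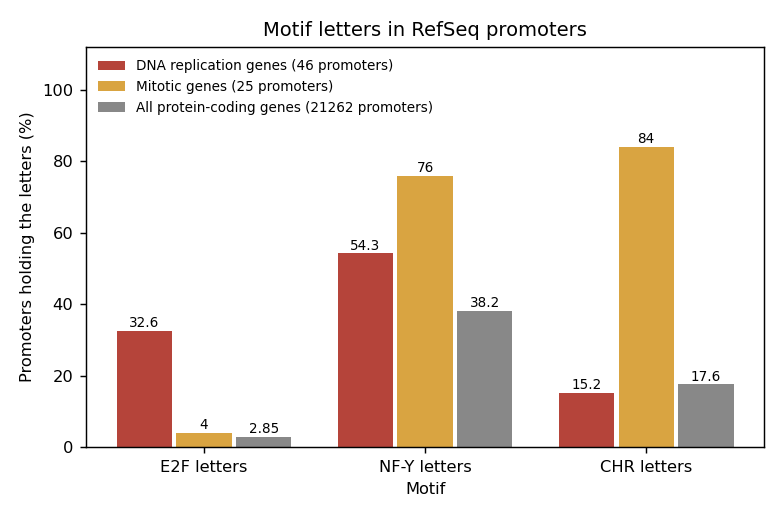
Percentage of RefSeq promoter windows that hold E2F letters (4 versions of 8 bases), the NF-Y letters CCAAT and the CHR letters TTTGAA or TTCGAA, on either strand, for DNA replication genes, mitotic genes and all protein-coding genes. E2F letters were in 32.6% of replication windows and 4.0% of mitotic windows, and CHR letters in 15.2% of replication windows and 84.0% of mitotic windows.

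CHR letters, a site through which the DREAM complex is known to hold down genes of mitosis, were spread differently. They were in 7 (15.2%) of the replication windows, against 17.6% of all promoters, and in 21 of 25 windows (84.0%) of the mitotic genes described further below. CCAAT, the letters bound by NF-Y, was in 54.3% of replication windows and 38.2% of all. The median G and C content was 60.7% for the replication windows and 56.3% for all, and a match is a run of letters, not a bound site.

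Of the factors that turn the loaded ring into a helicase, Gins1, Gins2 and Cdc45 rose and Gins3, Gins4 and Mcm10 did not pass. Gins1 read 6.53, 7.11, 7.13 and 5.71 in PD-SCC, against 4.06, 5.33, 4.85 and 3.93 in WD-SCC (difference 2.08 ± 0.31, adjusted p = 0.0147). Of the WD-SCC arrays, 2 of 4 were above background for Gins1. Gins2 had 8.21, 8.79, 8.68 and 9.08 in PD-SCC, against 7.40, 6.55, 6.70 and 6.17 in WD-SCC (difference 1.98 ± 0.33, adjusted p = 0.0189). Gins1 and Gins2 encode subunits of the 4-protein GINS complex, and both were higher in PD-SCC in all 3 lineages. Cdc45 measured 5.20, 5.39, 4.93 and 4.80 in PD-SCC, against 4.87, 4.71, 4.25 and 4.31 in WD-SCC (difference 0.54 ± 0.10, adjusted p = 0.0253). The change in Cdc45, the helicase cofactor, was small and even, at 0.50 in OT7, 0.67 in OT14 and 0.49 in OT15; its groups overlapped, and without the lineage block it did not pass (adjusted p = 0.0958). Mcm10, which helps the assembled helicase to start, had 7.27, 7.14, 6.49 and 5.19 in PD-SCC, against 6.30, 6.43, 5.55 and 5.13 in WD-SCC, a difference of 0.67 ± 0.17, adjusted p = 0.0591. The OT15 arrays of Mcm10 differed by 0.06. Gins4 differed by 1.19 ± 0.42, adjusted p = 0.12, with groups that did not overlap. Gins3, another GINS subunit, had 3.77, 3.80, 3.73 and 4.27 in PD-SCC, against 3.48, 3.67, 3.72 and 3.82 in WD-SCC. No WD-SCC array of Gins3 was above background (adjusted p = 0.225), where the controls were higher than in PD-SCC, and its 2 probe sets differed in sign.

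Among 9 polymerase and primase subunits, Pole2, Prim2, Pold1 and Pola2 rose, 1 or more from each of the 3 replicative polymerases. Prim2 stood at 7.64, 8.20, 6.55 and 6.39 in PD-SCC, against 4.58, 5.02, 5.21 and 5.16 in WD-SCC (difference 2.20 ± 0.42, adjusted p = 0.0283). Prim2, the large subunit of the primase that lays down RNA primers, was 4.61-fold higher over all lineages and 3.12 higher in OT7, more than in OT14 (1.34) or OT15 (1.23). Pole2 read 5.74, 6.40, 5.92 and 4.94 in PD-SCC, against 4.78, 4.58, 3.75 and 3.74 in WD-SCC (difference 1.53 ± 0.22, adjusted p = 0.0139). Pole2 is the second subunit of polymerase epsilon, which copies the leading strand, and 2 of its WD-SCC arrays were above background. Pold1 had 6.35, 7.38, 5.29 and 4.84 in PD-SCC, against 5.57, 5.36, 3.89 and 3.99 in WD-SCC (difference 1.26 ± 0.25, adjusted p = 0.0314). Pold1, the catalytic subunit of polymerase delta, which copies the lagging strand, had overlapping groups: 2 PD-SCC values lay under the highest WD-SCC value, and without the lineage block it did not pass (adjusted p = 0.211). Pola2 measured 5.64, 6.37, 5.24 and 5.58 in PD-SCC, against 4.81, 5.02, 4.57 and 4.78 in WD-SCC (difference 0.92 ± 0.19, adjusted p = 0.036). Pola2, the second subunit of polymerase alpha, was between 0.68 and 1.09 higher in each lineage.

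The other 5 subunits of this role had differences above 0 without passing. They were Prim1, the catalytic primase subunit (1.16, adjusted p = 0.0644), Pold2 (1.31, adjusted p = 0.0681), Pold3 (0.46, adjusted p = 0.144), Pole, the catalytic subunit of polymerase epsilon (0.86, adjusted p = 0.237), and Pola1, the catalytic subunit of polymerase alpha. Pola1 averaged 4.14 ± 0.51 in PD-SCC and 3.29 ± 0.35 in WD-SCC (SD, n = 4 each), with overlapping groups (adjusted p = 0.12). Only 2 of its PD-SCC arrays and no WD-SCC array were above background, so no fold is given. Pole was above background on 3 PD-SCC arrays and 1 WD-SCC array.

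In the sliding clamp and its loader, 4 of 6 genes rose, with a median difference of 1.09. Pcna, which encodes the clamp, and Rfc2, Rfc3 and Rfc5 of the 5-subunit loader were the 4. Pcna stood at 9.32, 9.56, 9.07 and 9.23 in PD-SCC, against 7.92, 8.57, 7.17 and 7.30 in WD-SCC (difference 1.56 ± 0.22, adjusted p = 0.0129). Rfc3 read 9.22, 9.33, 9.22 and 8.26 in PD-SCC, against 7.49, 6.47, 7.34 and 5.83 in WD-SCC (difference 2.22 ± 0.24, adjusted p = 0.00691). Rfc3 was 4.67-fold higher, with differences of 2.29 in OT7, 1.87 in OT14 and 2.43 in OT15, and its promoter, printed above, holds 2 E2F matches around the start. Rfc2 had 7.94, 8.28, 8.20 and 7.58 in PD-SCC, against 7.20, 7.07, 7.29 and 6.38 in WD-SCC (difference 1.01 ± 0.12, adjusted p = 0.0079). Rfc2 was 0.97 higher in OT7, 0.91 in OT14 and 1.20 in OT15, on a probe set that can also detect other transcripts. In a fit over all probe sets, its others gave 0.50 (adjusted p = 0.148) and 0.64 (adjusted p = 0.0312). The set with 0.50 was above background on all 8 arrays. Rfc5 measured 5.29, 5.48, 4.90 and 4.69 in PD-SCC, against 4.60, 4.65, 4.30 and 4.32 in WD-SCC (difference 0.63 ± 0.11, adjusted p = 0.0235). Without the lineage block Rfc5 did not pass (adjusted p = 0.0697). Rfc4 (1.11, adjusted p = 0.0695) and Rfc1, the large subunit (1.06, adjusted p = 0.0846), did not pass; Rfc1 was 1.79 higher in OT7 and 0.30 higher in OT15.

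Replication protein A was the only role in which every gene rose. It coats single-stranded DNA as a complex of 3 subunits, encoded by Rpa1, Rpa2 and Rpa3. Rpa1 stood at 9.26, 9.61, 9.05 and 9.43 in PD-SCC, against 5.89, 7.36, 7.47 and 6.19 in WD-SCC (difference 2.61 ± 0.41, adjusted p = 0.0174). Rpa2 read 7.20, 7.20, 6.70 and 6.54 in PD-SCC, against 5.63, 6.21, 5.76 and 5.22 in WD-SCC (difference 1.20 ± 0.16, adjusted p = 0.0106). Rpa3 had 4.73, 5.50, 4.85 and 4.47 in PD-SCC, against 3.67, 3.81, 4.06 and 3.33 in WD-SCC (difference 1.17 ± 0.21, adjusted p = 0.0228). PD-SCC values lay above all WD-SCC values for each subunit. Rpa1, the large subunit that holds most of the DNA-binding surface, was 6.12-fold higher, the second largest rise of the 45 genes, whereas Rpa3, the smallest subunit, was above background on only 1 WD-SCC array.

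Of the pair that finishes Okazaki fragments, the short pieces of the lagging strand, Lig1 rose and Fen1 did not pass. Lig1 measured 10.48, 10.83, 9.01 and 8.59 in PD-SCC, against 8.22, 6.90, 7.45 and 6.64 in WD-SCC (difference 2.42 ± 0.41, adjusted p = 0.0201). Lig1 encodes the ligase that seals the nicks, and it was 5.37-fold higher, most in OT7 (3.10). Fen1, the flap nuclease, stayed near background, with 3.89, 4.22, 3.68 and 3.47 in PD-SCC, against 3.43, 4.30, 3.61 and 3.53 in WD-SCC; it was above the controls on 3 PD-SCC arrays and 1 WD-SCC array. The difference was 0.09 ± 0.21, adjusted p = 0.784.

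In nucleotide supply, Dut and Tyms rose. Dut encodes the dUTPase that keeps uracil out of DNA. Dut stood at 8.28, 8.82, 7.63 and 7.19 in PD-SCC, against 6.67, 7.06, 6.00 and 5.71 in WD-SCC (difference 1.62 ± 0.16, adjusted p = 0.00566). It had the smallest p of the 45 genes and an even difference, at 1.69 in OT7, 1.64 in OT14 and 1.48 in OT15. Tyms encodes thymidylate synthase. Tyms read 7.08, 8.26, 7.27 and 6.91 in PD-SCC, against 6.42, 6.33, 5.55 and 5.73 in WD-SCC (difference 1.37 ± 0.27, adjusted p = 0.0314). Of 5 Tyms probe sets, the other 4 lay near background. Tk1, thymidine kinase, had 6.12, 8.20, 6.43 and 6.65 in PD-SCC, against 5.14, 5.71, 5.53 and 4.09 in WD-SCC. It did not pass (1.73 ± 0.52, adjusted p = 0.0824), although the groups did not overlap; the OT7 PD-SCC arrays differed by 2.08 from each other. Rrm1 and Rrm2 encode the subunits of ribonucleotide reductase, which makes deoxyribonucleotides. Rrm2 had 7.08, 7.81, 6.38 and 5.92 in PD-SCC, against 6.90, 6.79, 5.86 and 4.72 in WD-SCC, overlapping groups with a difference of 0.73 ± 0.21, adjusted p = 0.0728. Rrm1 had 7.59, 7.56, 7.86 and 7.95 in PD-SCC, against 7.41, 6.87, 6.98 and 5.57 in WD-SCC, groups that did not overlap, with a difference of 1.03 ± 0.36, adjusted p = 0.117. Rrm1 was 2.38 higher in OT15 and 0.43 higher in OT7.

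**Figure D4:**
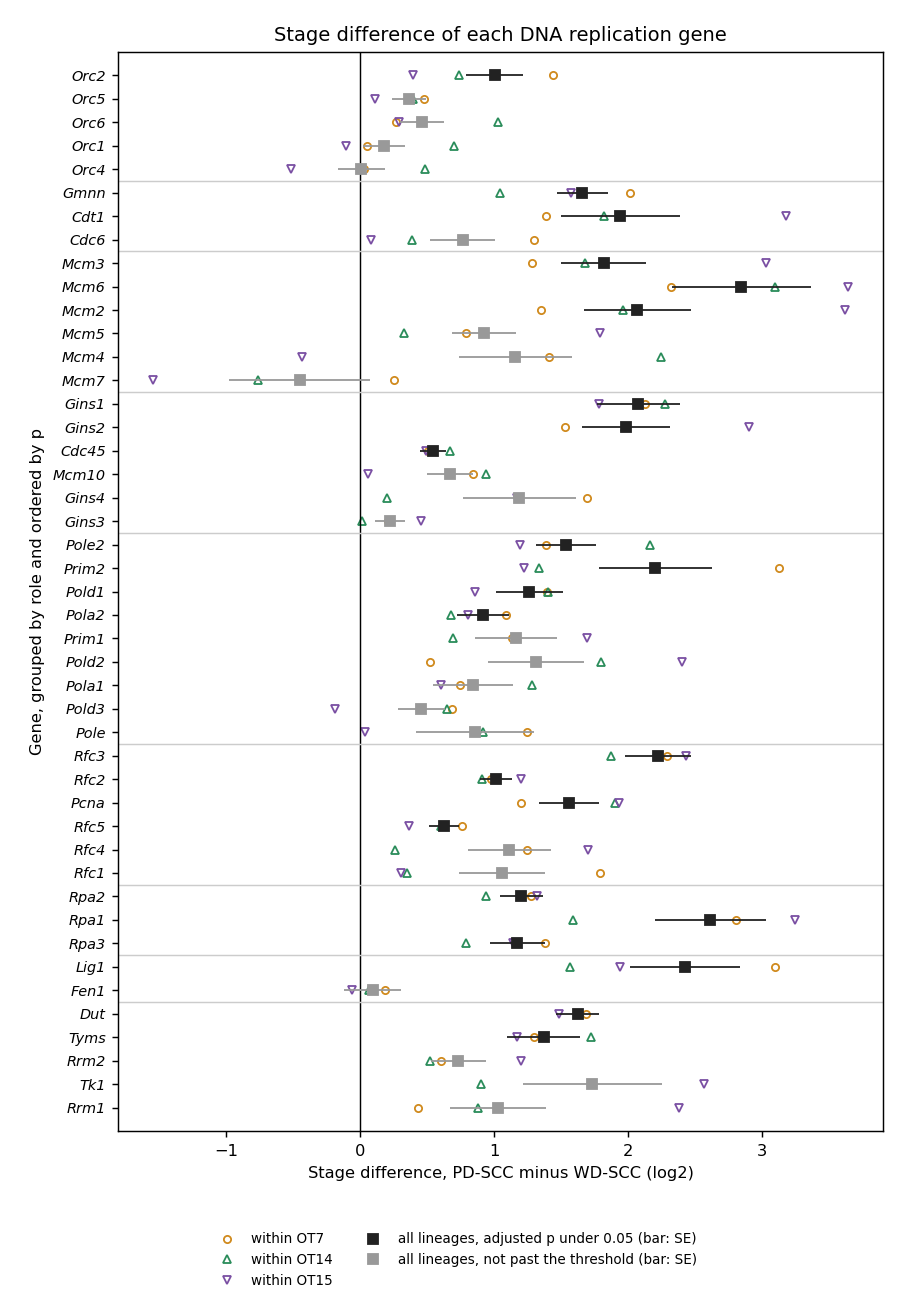
Difference between the stages (PD-SCC minus WD-SCC, log2) of each gene by role, as squares with the standard error of the fit, black where the adjusted p was under 0.05 and grey otherwise, with open symbols for the difference within each lineage. Squares of 44 of 45 genes lie above 0, from 0.01 for Orc4 to 2.84 for Mcm6, and Mcm7 lies at -0.45.

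By lineage, OT7 had a median difference of 1.28 over the 45 genes, OT14 of 0.91 and OT15 of 1.20. All 45 differences were above 0 in OT7, 44 in OT14 and 39 in OT15, and 39 genes were above 0 in all 3, or 86.7%, where 22.2% of all genes were. For Mcm4, Mcm7, Orc1, Orc4, Pold3 and Fen1 the OT15 difference was below 0. The test of whether the stage difference varied between lineages passed for 0 genes (0%, limma F test, 2 residual degrees of freedom, all from OT7), with 12 of the 45 replication genes at an unadjusted p under 0.05, a lowest adjusted p of 0.215 and 2043 of all genes at that unadjusted p. Differences between lineages whatever the stage also passed for 0 genes (0%, limma F test), with 14 replication genes and 1251 of all genes at an unadjusted p under 0.05.

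The mean of the 45 genes put the arrays of each stage in the same order of lineages. It was 6.72 and 7.05 in OT7, 6.42 in OT14 and 6.18 in OT15 for PD-SCC, against 5.56 and 5.76 in OT7, 5.34 in OT14 and 4.96 in OT15 for WD-SCC. The lowest PD-SCC mean was above the highest WD-SCC mean. The mean of all genes lay between 4.78 and 4.89 on every array. The second OT7 PD-SCC array held the highest PD-SCC value of 26 of the 45 genes, and the OT15 WD-SCC array the lowest WD-SCC value of 23.

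**Figure D5:**
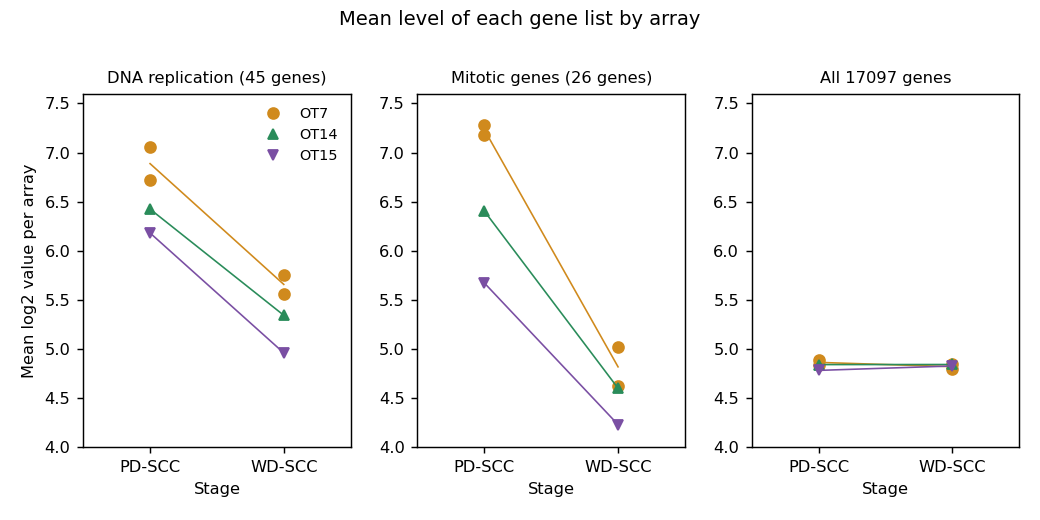
Mean log2 value per array of the 45 DNA replication genes, 26 mitotic genes and all 17097 genes, PD-SCC left and WD-SCC right, with lines joining the stage means of each lineage. Replication genes average 6.18 to 7.05 on PD-SCC arrays and 4.96 to 5.76 on WD-SCC arrays, while the mean of all genes lies between 4.78 and 4.89.

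Other genes of the same process that passed were higher in PD-SCC, where over all genes 7.78% rose and 4.81% fell. Of 35 replication partners (checkpoint, chromatin assembly and fork factors) 11 rose and 0 fell, with a median of 0.60. They included Cdca5, the cohesin protector sororin (2.25 ± 0.24, adjusted p = 0.00621), Asf1b, a histone chaperone (1.93 ± 0.22, adjusted p = 0.00727), and Fbxo5, an inhibitor of the anaphase-promoting complex that keeps geminin from destruction (1.93 ± 0.31, adjusted p = 0.0184). Wdhd1, which links the helicase to polymerase alpha, was at or under background on all WD-SCC arrays and at least 4.71-fold higher (adjusted p = 0.00854). Of 20 further nucleotide synthesis genes 4 rose and 0 fell, with a median of 0.61. They were Ctps, which makes CTP (1.20 ± 0.11, adjusted p = 0.0045), Cad, which starts pyrimidine synthesis (1.41 ± 0.25, adjusted p = 0.0238), and Ppat and Paics, both of purine synthesis (2.01 ± 0.26, adjusted p = 0.00994 and 1.23 ± 0.22, adjusted p = 0.0238).

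Of 18 regulators of S phase entry, 5 rose and 0 fell, with a median of 0.39: Ccna2, the S phase cyclin (3.04 ± 0.23, adjusted p = 0.00307), Tfdp1, the partner subunit of E2F factors (1.80 ± 0.16, adjusted p = 0.00466), Mki67, a proliferation marker (1.86 ± 0.24, adjusted p = 0.00994), E2f1, an activating E2F factor (1.31 ± 0.26, adjusted p = 0.0316), and E2f7, a repressing one (1.98 ± 0.41, adjusted p = 0.0348). Among 26 mitotic genes, 19 rose and 0 fell, with a median of 2.06, and the 4 with the smallest p were Cdca8, Birc5, Tpx2 and Cenpf (3.69 ± 0.16, adjusted p = 0.000622 for Cdca8). The mitotic list mean ran between 5.67 and 7.29 on PD-SCC arrays and 4.23 and 5.02 on WD-SCC arrays. Over all genes, 7.78% rose and 4.81% fell. All these lists were chosen with earlier results of the data known, and their counts are descriptions.

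Mean levels of keratinocyte and blood cell markers differed between the stages without overlap, while those of endothelial and fibroblast markers overlapped. Over all genes, 4.81% fell and 7.78% rose. Of 8 keratinocyte genes 6 fell and 0 rose, and their mean level ranged from 3.85 to 4.29 on PD-SCC arrays and from 7.75 to 8.17 on WD-SCC arrays. Cdh1, the epithelial cadherin, was at or under background on every PD-SCC array. The mean of 13 blood cell genes ranged from 3.90 to 4.54 in PD-SCC and from 5.74 to 6.50 in WD-SCC, 4 of them fell, and Ptprc, which marks all white blood cells, was at or under background on every array, as were Itgam and Cd3g. The 4 that fell were above background on all WD-SCC arrays: Cd68, a macrophage gene, at 3.78 to 5.90 in PD-SCC and 7.48 to 7.91 in WD-SCC, Fcer1g at 4.82 to 5.24 in PD-SCC and 6.58 to 8.84 in WD-SCC, and S100a8 and S100a9, which keratinocytes can also express, at means of 3.89 and 4.60 in PD-SCC and 10.04 and 10.55 in WD-SCC. Lyz2 reached 8.22 on the OT14 WD-SCC array. For 7 endothelial genes the ranges were 3.74 to 4.26 in PD-SCC and 3.94 to 6.66 in WD-SCC, with 1 fall and Tek under background throughout. Cdh5, the endothelial cadherin, was at 4.36 to 8.39 in PD-SCC and 4.31 to 9.80 in WD-SCC, and Pecam1 at 3.47 to 4.21 in PD-SCC and 4.34 to 7.54 in WD-SCC. The ranges for 10 fibroblast genes were 5.98 to 6.62 in PD-SCC and 5.20 to 7.71 in WD-SCC, with 1 fall. Of the sort markers, Cd34 was at 3.58 on the OT15 WD-SCC array, under the bacterial controls, and neither it nor Itga6 passed. Without that array, and so without OT15 in the stage difference, 17 replication genes rose, as did 4.92% of all genes. Of these 17, 14 were among the 23 that rose with all 8 arrays. The part of cell type makeup in the replication result was not tested, nor was that of array background, which differed with the stages: a GC-rich background control probe set read 6.94 ± 0.19 on PD-SCC arrays and 8.39 ± 0.26 on WD-SCC arrays (SD, n = 4 each).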

How the data were processed

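Expression was measured on 8 single-colour Affymetrix arrays, 4 of PD-SCC and 4 of WD-SCC cells. The authors deposited 1 log2 value per probe set and array. RMA and the affy package are named in the submitters' processing notes; RMA subtracts a modelled background, equalises the arrays' quantiles and combines the probes of a set. Their versions and the chip definition file are not given in the sources used, nor is the set of arrays that was normalised jointly. The log2 scale was read from the deposited values, which lie between 2.40 and 13.24. Quantile normalisation gives each array nearly the same distribution, so a shift shared by most genes could not appear. The background correction was not redone.

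Of 45141 probe sets, 104 were controls, 28898 had 1 gene and 551 several in the platform annotation, whose symbols were brought up to date by Entrez number with RefSeq (GRCm38.p6, 99.1% of genes matched). For each of the 17097 genes the probe set of highest mean level on the 8 arrays was kept. Stage effects were fitted in R 4.3.3 with limma 3.58.1 (two-sided, lmFit then eBayes), lineage being a fixed block (4 residual degrees of freedom), and p-values were adjusted by Benjamini-Hochberg over all genes (threshold 0.05). Lineage effects used F tests. Across genes, the deviations of a lineage from the 2 stage means had correlations of 0.02 (OT14), 0.06 (OT15) and -0.04 (OT7), and over the 45 genes alone 0.12 (OT14), -0.01 (OT15) and 0.26 (OT7). The pairing by lineage was taken from the series design. Scripts were tested on simulated data. There the stage test recovered 46.27% of changes of 1 log2 unit, 74.63% of 2 and 93.94% of 4. A gene that did not pass may therefore still differ. Plots used Python 3.11.15 and matplotlib 3.10.9.

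The genes, lists and tests were chosen with earlier results of these data known. Described with every array were up to 4 genes per role with the smallest p, the 3 with the widest range between lineages and those whose probe sets disagreed in sign, with up to 4 genes per further list; E2f7 was added after its value was seen. Values of other members, and Mcm7, Ptprc, Itgam, Cd3g, Tek, Cd68, Fcer1g, S100a8, S100a9, Lyz2, Cdh5, Pecam1, Cdh1, Cd34 and Itga6, were given for their role or as markers. The alternatives were no block, a random block, averaged OT7 arrays, leaving out dim genes, averaging all probe sets of a gene, a robust prior with trend, cyclic loess, a common 75th percentile, leaving out arrays or lineage OT7, and, chosen after seeing the data, raising dim values to the highest bacterial control.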

Additional observations from a re-analysis of the deposited data

Results flagged for a closer look

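Of 74 groups of 4 arrays examined, each 1 described member in 1 stage, 3 held an array that stood apart from the other 3 by Dixon's criterion, and chance gives about 1 in 20. Rfc3 was at 8.26 on the OT15 PD-SCC array, while the other PD-SCC arrays lay between 9.22 and 9.33. Mcm4 was at 3.86 on the OT14 WD-SCC array, with 4.96 to 5.04 on the remaining WD-SCC arrays. Gins3 was at 4.27 on the OT15 PD-SCC array, against 3.73 to 3.80 on the other PD-SCC arrays, all near background.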

How the results depend on the processing

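The count of 23 replication genes that rose was 18 with no replicate block (lineage left out of the fit), and 17 of these were among the 23. It was 19 with lineage as a random block, 22 with probe sets averaged and 27 of 41 genes after a filter on dim genes. That filter kept genes above the controls on at least 4 arrays. A gene could pass it on its PD-SCC arrays alone, as Gins3 did, so the 27 is not separate support for the rise. With scaling to the 75th percentile the count was 21, and with a trended and robust prior 20. Of all genes, 7.31% rose with no block, 7.61% with a random block and 8.24% with probe sets averaged. The shares were 16.3% of 9878 genes after the dim filter, 6.73% at the 75th percentile and 7.87% with the trended and robust prior. The count of replication genes fell to 15 after cyclic loess, 4 with the OT7 arrays averaged and 1 without lineage OT7, of which the last pair of settings have fewer samples. With values under 4.37, the highest bacterial control, raised to it, 5 rose, an alternative chosen after seeing the data. Leaving out each array gave 10 to 17, where 3.21% to 5.6% of all genes rose. For OT14 and OT15 this took the whole lineage out of the stage difference. Beside these, all genes that rose numbered 1331, and 799 after cyclic loess, 202 with OT7 averaged, 52 without OT7 and 305 with raised values; the genes that fell numbered 823, 930, 199, 194 and 200. Under 75th percentile scaling 1150 rose and 1205 fell and the median of all genes was -0.21, with the replication median at 1.01. In all of these settings 0 replication genes fell and their median lay between 0.89 and 1.22. For the 37 described genes, 9 of the recomputed differences changed sign, all of Orc4 or Fen1, whose differences lie near 0: Orc4 gave -0.0035 with averaged probe sets, -0.141 at the 75th percentile, -0.0121 without OT7 and -0.1503 to 0.1829 without single arrays, and Fen1 gave -0.0566 at the 75th percentile and -0.0991 to 0.2502 without single arrays. The causes were not tested. The lineage tests passed for 0 members under each of 3 alternatives. The 4 arrays per stage limit the precision, and 5 members were at or under background on every WD-SCC array.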

Other observations

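The members had 82 probe sets in all, and 37 of these were not used for the values above. Of those 37, 9 passed the stage test as higher in PD-SCC and 0 as lower, in a fit over all probe sets. The share of all probe sets that passed in that fit was not taken, so the count has no background beside it. Unused sets that did not pass included, for genes that rose, those of Rfc3 (0.77, adjusted p = 0.0588) and Gins2 (1.20, adjusted p = 0.052). Others were those of Pole2 (0.48, adjusted p = 0.288), Pola2 (0.22, adjusted p = 0.231) and Orc2 (0.84, adjusted p = 0.104, and 0.48, adjusted p = 0.215). Among 26 members with more than 1 probe set, 22 had differences of 1 sign on all of them; the exceptions were Cdt1, Gins3, Orc4 and Tyms. Between the OT7 arrays of a stage, the median absolute difference of the 45 genes was 0.33 in PD-SCC and 0.24 in WD-SCC, and the widest gaps were 2.08 for Tk1 in PD-SCC and 2.19 for Mcm6 in WD-SCC.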
